A study of Mus musculus with 7 samples.

Results

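RNA-seq counts of 42 genes of phospholipid and sphingolipid metabolism were compared between WT and *Tardbp* KO mammary glands at lactation day 1 (L1). The members are a list of enzymes, transporters and transfer proteins, matched by symbol to the 37310 genes of the count table, with 5 of them under an older symbol (*Lass2*, *Lass4*, *Lass5* and *Lass6* for *Cers2*, *Cers4*, *Cers5* and *Cers6*, and *Gltpd1* for *Cptp*). All 42 were found, and all 42 passed the filter on low counts that left 17175 genes to be tested. The list spans the choline and ethanolamine branches of phospholipid synthesis (8 and 4 genes), phosphatidylserine (3), CDP-diacylglycerol and cardiolipin (4), acyl remodelling (4), hydrolysis of platelet activating factor (2), lipid transfer and scrambling (3), ceramide synthesis (9), sphingomyelin and glucosylceramide synthesis (3) and sphingolipid breakdown (2).

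The data are 7 libraries of whole mammary gland from C57BL/6 mice, 3 of them WT and 4 of them *Tardbp* KO. *Tardbp* encodes the RNA-binding protein TDP-43. In the study, WT mice were *Tardbp* wt/wt and KO mice *Tardbp* flox/flox, and both carried WAP-Cre, in which the *Wap* (whey acidic protein) promoter drives Cre recombinase in luminal epithelial cells from mid-pregnancy to lactation, so that *Tardbp* is not deleted in other cells of the gland. Cre removes exons 2 and 3, whereas the counts are per gene, and *Tardbp* itself had 223, 178 and 159 CPM in the WT libraries against 214, 176, 154 and 208 CPM in the KO libraries. Its log2 fold change was 0.01, a value that does not check the deletion. A KO library means here a library that carries this label, and values by library are given in the order of the replicate numbers (WT 1 to 3, KO 1 to 4). There were as many libraries as mice (3 WT and 4 KO), although the labels do not name the animal of each library, and p-values measure the spread between these libraries.

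Library totals lay between 36007737 and 42811337 counts. WT replicate 2, KO replicate 3 and KO replicate 4 were sequenced on lane 4, and no other lane held both genotypes. WT replicate 2 also stood apart in its profile over all tested genes. This profile correlated with KO replicates 4 (r = 0.980) and 2 (r = 0.977, lane 5) more strongly than with WT replicates 3 (r = 0.975) and 1 (r = 0.968). Milk protein genes took 26.3% to 34.0% of the counts in WT libraries and 12.7% to 21.8% in KO libraries. The summed level of 8 lymphocyte markers was 36.5 to 51.6 CPM (counts scaled to a common library total, with edgeR's TMM factors) in WT libraries and 366, 62.4, 498 and 111 CPM in KO replicates 1 to 4. All 8 had an unadjusted p under 0.05, with a median log2 fold change of 2.56. Of 8 alveolar luminal markers, 4 were lower and 1 was higher at that limit (median −0.83), although *Krt8*, *Krt18* and *Epcam*, which define luminal epithelium, had log2 fold changes of 0.55, 0.64 and 0.26. No marker of myoepithelium, adipocytes, myeloid cells, endothelium or fibroblasts reached an unadjusted p of 0.05 (0 of 6, 7, 5, 4 and 5), and the skeletal muscle markers summed to at most 3.45 CPM. In bulk tissue, fewer cells of a type and less RNA per cell cannot be told apart.

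Phosphatidylcholine and phosphatidylethanolamine, the main phospholipids of animal membranes, are made by the Kennedy pathway, in which choline or ethanolamine is phosphorylated, activated with CTP and joined to diacylglycerol. Other branches make phosphatidylserine by base exchange and cardiolipin from CDP-diacylglycerol, and acyltransferases then replace the fatty acids of finished phospholipids. Sphingolipids start from serine and palmitoyl-CoA, pass through ceramide and end as sphingomyelin or glycosphingolipids. In lactating mammary epithelium these lipids supply the secretory membranes and the membrane that wraps each milk fat globule.

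TDP-43 binds UG repeats in RNA, and runs of at least 3 UG dinucleotides were therefore located in the longest annotated transcript of each member. The following runs are shown because they are the longest of the list, or lie in members described below with an unadjusted p under 0.05 or without overlap between the genotypes. Not every run of such members is printed. Among those left out are runs of 4 in *Ano4* (5′ UTR) and *Sptlc1* (3′ UTR), both lower in KO libraries. Each printed run is read 5′ to 3′ on the strand of the gene from assembly NCBIM37, with T for U and the run in capitals. For *Cds2* and *Sgms1* the first 10 UG dinucleotides of a longer run are printed.
Cds2, 3′ UTR, run of 18: gttgggagtaTGTGTGTGTGTGTGTGTGTG
Cds2, coding exon 5, run of 4: gtacttcctgcTGTGTGTGaactacttctt
Cds1, coding exon 5, run of 4: gtacttcctccTGTGTGTGaactacttctt
Sgms1, 3′ UTR, run of 16: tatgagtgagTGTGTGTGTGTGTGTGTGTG
Sgms2, 3′ UTR, run of 5: gctataattcTGTGTGTGTGtttcagaggg
Cptp, 3′ UTR, run of 4: acttcagcttaTGTGTGTGttcaggcagtc
Cptp, 3′ UTR, run of 4: agcatagctggTGTGTGTGaatgcaaactt
Serinc5, coding exon 12, run of 4: ctcctgctggaTGTGTGTGctgctgtacct
Lpcat2, coding exon 8, run of 4: attcctccagcTGTGTGTGctcactttctg

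The *Cds2* runs lie on the plus strand at chr2:132136443-132136478 and chr2:132122972-132122979, and the *Cds1* run lies on the plus strand at chr5:102227407-102227414. The coding runs of these paralogs, which encode the CDP-diacylglycerol synthases, occupy the same place in exon 5 and differ from each other in 1 of the 30 bases shown. The *Sgms1* and *Sgms2* runs are on the minus strand at chr19:32197403-32197434 and chr3:131024459-131024468. Those of *Cptp* are on the minus strand at chr4:155240234-155240241 and chr4:155239470-155239477. The *Serinc5* and *Lpcat2* runs are on the plus strand at chr13:93478022-93478029 and chr8:95403307-95403314.

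At least 1 run was found in 34 of the 42 members (81.0%), compared with 71.5% of the 15112 tested genes that had a transcript. Runs of at least 6 were found in 2 members, *Cds2* and *Sgms1* (4.76%, against 6.33% of all). The median transcript was 2951 bases long in the members and 2909 bases in all genes, and they held 2.56 and 2.004 UG dinucleotides in runs per kb. These values per kb are pooled over transcripts, and *Cds2* alone held 77 UG dinucleotides in 8396 bases. The median per transcript was 6 in the members and 3 in all genes. Across the 42 members, the number of UG dinucleotides in runs and the fitted log2 fold change had a Spearman rho of 0.31, and rho was 0.14 with the absolute log2 fold change; the points share their 7 libraries, and a longer transcript has more room for runs. The 6 members higher in KO libraries at an unadjusted p under 0.05 held 4 to 77 UG dinucleotides in runs, with a median of 11.5, and the 11 lower members held 0 to 20, with a median of 6. Transcripts of the higher members had 2800 (*Lpcat2*) to 8396 bases (*Cds2*). Those of the lower members had 1003 (*Pemt*) to 4116 bases (*Ano4*), and these counts were not adjusted for length. Within the gene bodies, introns included, 33 members had a run of at least 6, a property of 63.1% of all tested genes.

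The main test was the quasi-likelihood test of edgeR, adjusted over all genes by Benjamini-Hochberg, and every adjusted p given without a test name comes from it. No member passed the study's limits, which ask for an adjusted p under 0.01 and for a log2 fold change outside −1 to 1. Nor did any other gene (percent called 0). At an unadjusted p under 0.05, 11 members were lower and 6 were higher in KO libraries (40.5% of the members), whereas 21.4% of all tested genes reached this p, 10.7% in each direction. Every KO library lay below every WT library for 10 members and above them for 5, and 18.7% of all genes were separated in this way, 9.62% below and 9.07% above. Both shares rose with fewer libraries to separate, to 24 members and 36.8% of all genes without WT replicate 2, and to 23 members and 31.5% of all genes without KO replicates 1 and 3. The member counts are not independent of the data. A lipid gene list that the study drew from genes differing in these libraries holds 9 of the members. Outside that list, 8 of 33 members had an unadjusted p under 0.05 and 7 of 33 were separated. Of the members, 21 had a negative and 21 a positive log2 fold change, with a median of −0.02 against 0.05 for all genes. The median absolute log2 fold change was 0.34 in the members and 0.31 in all genes. With libraries scaled by their total alone, which moved the median of all genes to 0.42, 7 members were lower and 19 higher at an unadjusted p under 0.05, beside 3.05% and 30.8% of all genes, and the median of the members was 0.35. The share of milk protein counts and the lymphocyte markers also separated the genotypes, and their part in the differences of the members was not tested.

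**Figure D1:**
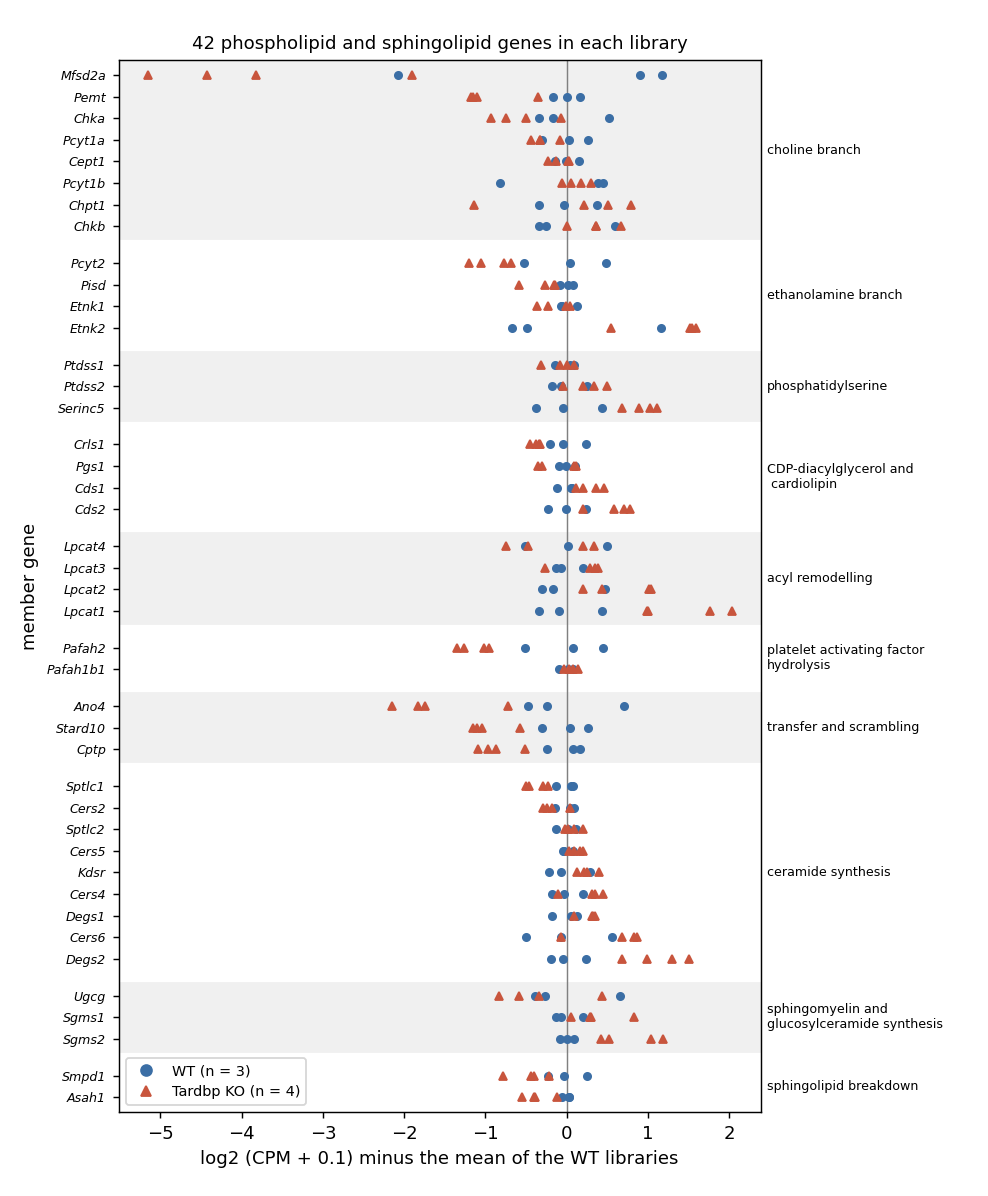
Level of each of the 42 members in each library, as log2 (CPM + 0.1) minus the mean of the WT libraries, ordered by role. Circles are the 3 WT libraries and triangles the 4 KO libraries, and the triangles lie left of all circles for 10 members and right of them for 5.

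Under these limits 5 members were called by the exact test of edgeR, of which *Mfsd2a*, *Ano4* and *Pafah2* were lower and *Lpcat1* and *Degs2* higher, beside 2.44% of all tested genes (1.43% lower, 1.01% higher). DESeq2's Wald test called the same 5, beside 3.31% of all genes (1.63% lower, 1.68% higher). All 5 belong to the 9 members (with *Cptp*, *Pcyt2*, *Serinc5* and *Stard10*) that are on a lipid gene list which the study drew from these libraries, so that their calls are not independent evidence. Of the 33 members outside that list, neither test called any (0 by the exact test and 0 by DESeq2). In the quasi-likelihood test 8 of the 33 had an unadjusted p under 0.05, beside 21.4% of all tested genes. For 7 of the 33 the genotypes did not overlap, beside 18.7% of all tested genes. The exact calls depended on single libraries, among the members as among all genes. Without WT replicate 3 the test called 0 members and 0.704% of all genes, without WT replicate 1 only *Stard10* and 0.628%, and without KO replicate 3 only *Lpcat1* and 1.03%. Without WT replicate 2 it called 6 members and 4.61% of all genes, and without KO replicate 4 it called 7 members and 4.03%. Left out together, KO replicates 1 and 3, which held the most lymphocyte transcripts, left 3 calls (*Ano4*, *Lpcat1* and *Mfsd2a*) and 0.636% of all genes.

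**Figure D2:**
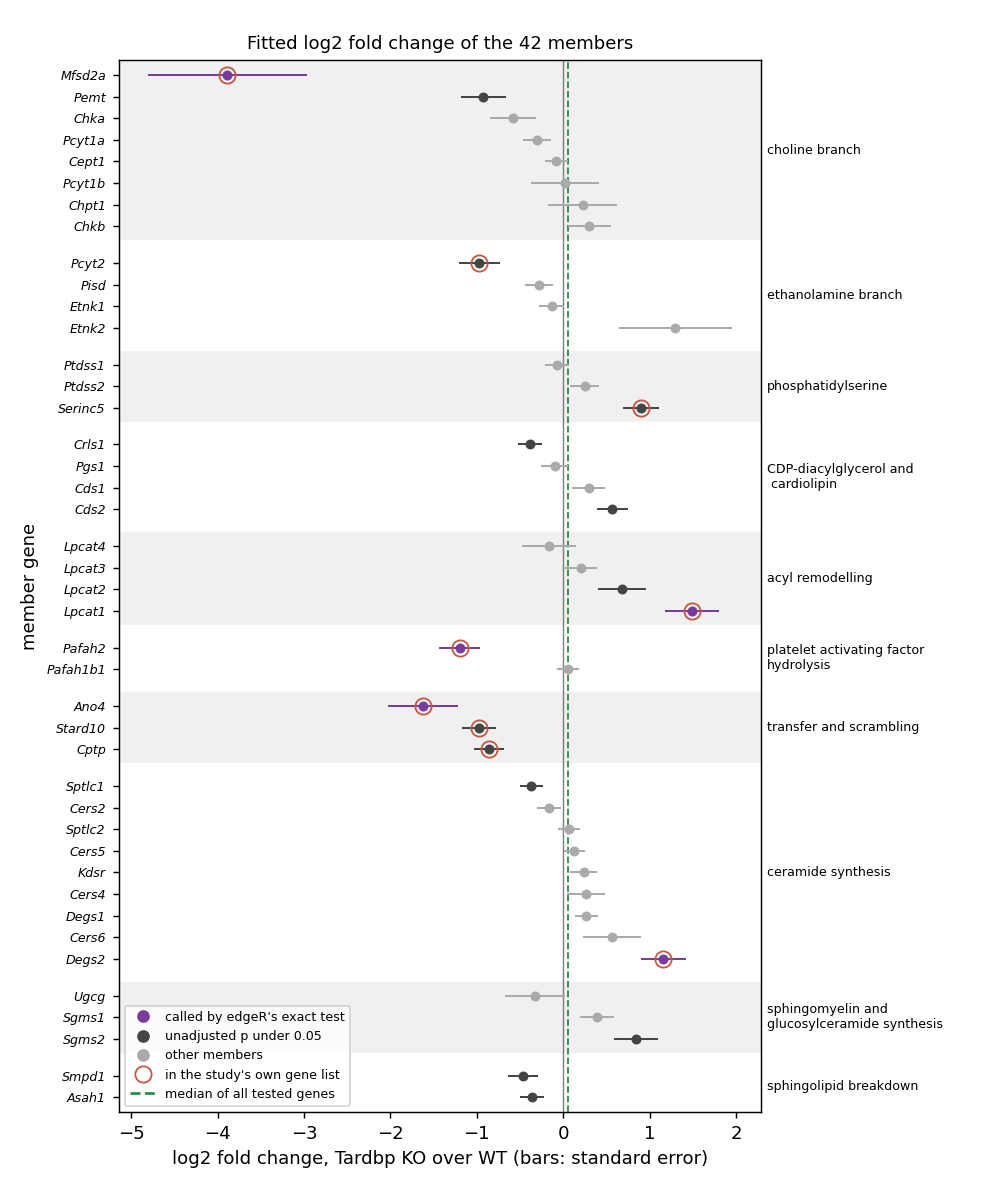
Fitted log2 fold change of each member, KO over WT, from edgeR's quasi-likelihood fit of 3 WT and 4 KO libraries. Bars are 1 standard error, derived from the F statistic of the test. Values run from −3.89 in Mfsd2a to 1.49 in Lpcat1, the 5 members called by the exact test are in purple, and the dashed line is the median of all tested genes at 0.05.

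The choline branch had 8 members and a median log2 fold change of −0.19, with 2 lower and 0 higher at an unadjusted p under 0.05. Over all tested genes 10.7% reached that limit in each direction, a share that stands beside the counts of every role group below. The lowest value of the whole list was that of *Mfsd2a* (minus strand, chr4:122624093-122638431), the transporter that brings lysophosphatidylcholine with its long-chain fatty acid into cells. *Mfsd2a* had 54.2, 5.57 and 44.8 CPM in the WT libraries against 6.32, 1.01, 0.573 and 1.60 CPM in the KO libraries. WT replicates 1 and 3 were high and the KO libraries low, but WT replicate 2 lay below KO replicate 1, so that the genotypes overlapped. The fit gave *Mfsd2a* a log2 fold change of −3.89 ± 0.92 (SE) and an adjusted p of 0.0848, and the adjusted p was 0.00175 in the exact test. Without KO replicate 1 the log2 fold change was −5.05, without WT replicate 1 it was −3.42, and within lane 4, where 1 WT library faces 2 KO libraries, it was −2.26.

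*Pemt*, which methylates phosphatidylethanolamine to phosphatidylcholine, had 8.91, 7.89 and 9.99 CPM in the WT libraries against 4.09, 3.93, 3.87 and 6.96 CPM in the KO libraries. No KO library reached a WT library, with KO replicate 4 nearest to them. Fitted over all libraries, the log2 fold change of *Pemt* was −0.92 ± 0.26 (SE) at an adjusted p of 0.108, and within lane 4 the log2 fold change was −0.54. *Chka*, a choline kinase, had 225 ± 75.0 CPM in WT (SD, n = 3) against 151 ± 40.6 CPM in KO libraries (SD, n = 4), and *Chkb*, its paralog, had 39.1 ± 15.0 CPM in WT (SD, n = 3) against 48.3 ± 8.99 CPM in KO libraries (SD, n = 4), with log2 fold changes of −0.58 and 0.30 (unadjusted p = 0.0582 and 0.261). The *Chkb* value is uncertain, since 52.8% of its exon bases are shared with *Cpt1b* on the same strand and reads over both were not counted.

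*Pcyt1a*, the enzyme that activates phosphocholine with CTP and controls the rate of the branch, had 49.4 ± 9.55 CPM in WT (SD, n = 3) against 40.0 ± 4.43 CPM in KO libraries (SD, n = 4), a log2 fold change of −0.31 (unadjusted p = 0.0961). Its paralog *Pcyt1b* was low, at 0.536 to 1.43 CPM over the 7 libraries. The final step is made by *Chpt1*, a cholinephosphotransferase, and by *Cept1*, which accepts choline and ethanolamine. *Chpt1* had 443 ± 111 CPM in WT (SD, n = 3) against 517 ± 237 CPM in KO libraries (SD, n = 4), the largest SD of the list in KO libraries, between 196 CPM in replicate 1 and 752 CPM in replicate 4. *Cept1* differed little in level, with 34.7 ± 3.69 CPM in WT (SD, n = 3) against 32.8 ± 2.71 CPM in KO libraries (SD, n = 4) and a log2 fold change of −0.08, but 28.3% of its exon bases overlap *Dennd2d* on the opposite strand. Smaller overlaps with other genes, from 4.59% to 7.93% of exon bases, affect *Pgs1*, *Cers2*, *Ptdss1* and *Chpt1*.

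In the ethanolamine branch the median log2 fold change of the 4 members was −0.21, and 1 was lower at an unadjusted p under 0.05. That member was *Pcyt2* (minus strand, chr11:120471401-120479250), the enzyme that activates phosphoethanolamine with CTP. *Pcyt2* had 146, 72.3 and 107 CPM in the WT libraries against 61.1, 50.2, 45.4 and 64.7 CPM in the KO libraries. The KO libraries lay between 45.4 and 64.7 CPM, below the lowest WT library, which was again replicate 2. For *Pcyt2*, the fitted log2 fold change was −0.97 ± 0.24 (SE) and the adjusted p 0.0862. Without WT replicate 1 the log2 fold change was −0.70, and within lane 4 it was −0.39. *Pcyt2* is one of the study's listed genes.

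*Pisd*, the mitochondrial enzyme that decarboxylates phosphatidylserine to phosphatidylethanolamine, had 18.2, 16.4 and 17.5 CPM in the WT libraries against 15.7, 14.3, 11.5 and 15.5 CPM in the KO libraries. The genotypes did not overlap, but the distance was small and the log2 fold change was −0.28 (unadjusted p = 0.115), turning to 0.08 with scaling by library total. The exons of *Pisd* share 30.3% of their bases with another gene. *Etnk1* and *Etnk2* encode ethanolamine kinases. *Etnk1* had 100.1 ± 7.94 CPM in WT (SD, n = 3) against 91.2 ± 11.7 CPM in KO libraries (SD, n = 4), and *Etnk2* was the lowest member of the list, at 0.119 to 0.960 CPM, with a log2 fold change of 1.30 (unadjusted p = 0.0779) and only 4 counts in WT replicates 1 and 2 each.

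Of the 3 phosphatidylserine members, *Serinc5* (plus strand, chr13:93381093-93481899), a membrane protein named for incorporation of serine into lipids and now known to scramble phospholipids, was higher in KO libraries. *Serinc5* had 47.3, 83.4 and 59.7 CPM in the WT libraries against 99.3, 134, 115 and 126 CPM in the KO libraries. The lowest KO library, replicate 1, lay above the highest WT library, replicate 2. *Serinc5* had a fitted log2 fold change of 0.90 ± 0.21 (SE) at an adjusted p of 0.0839, and within lane 4 the log2 fold change was 0.53. The base-exchange enzymes differed less, with 55.9 ± 4.77 CPM in WT (SD, n = 3) against 53.3 ± 6.29 CPM in KO libraries (SD, n = 4) for *Ptdss1*, which uses phosphatidylcholine, and 35.7 ± 5.69 CPM in WT (SD, n = 3) against 42.4 ± 6.60 CPM in KO libraries (SD, n = 4) for *Ptdss2*, which uses phosphatidylethanolamine. Their log2 fold changes were −0.07 and 0.25 (unadjusted p = 0.631 and 0.183).

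The 4 members around CDP-diacylglycerol and cardiolipin were divided. *Cds2*, whose transcript holds the longest UG run printed above, had 40.8, 47.6 and 56.2 CPM in the WT libraries against 71.6, 77.7, 82.2 and 54.8 CPM in the KO libraries. KO replicate 4 lay inside the WT range and the other KO libraries above it. The fit gave *Cds2* a log2 fold change of 0.57 ± 0.18 (SE) and an adjusted p of 0.131. Its paralog *Cds1* had 5.90, 5.18 and 5.89 CPM in the WT libraries against 6.10, 7.82, 7.29 and 6.51 CPM in the KO libraries, so that every KO library was above every WT library by a narrow margin, with a log2 fold change of 0.29 (unadjusted p = 0.167). *Crls1*, the cardiolipin synthase of mitochondria, was lower in KO libraries, with 43.8, 32.1 and 35.9 CPM in the WT libraries against 26.9, 29.2, 28.6 and 29.3 CPM in the KO libraries. The groups did not overlap, the log2 fold change was −0.39 ± 0.14 (SE) at an adjusted p of 0.162, within lane 4 it was −0.15, and with scaling by library total −0.00321. *Pgs1*, which makes phosphatidylglycerol phosphate earlier in the same route, had 69.8 ± 5.03 CPM in WT (SD, n = 3) against 65.1 ± 11.2 CPM in KO libraries (SD, n = 4) and a log2 fold change of −0.10.

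Acyl remodelling had the highest median of the phospholipid groups, 0.44 over 4 members, of which 2 were higher at an unadjusted p under 0.05. *Lpcat1* (plus strand, chr13:73604645-73653870), an acyltransferase that adds saturated fatty acids to lysophosphatidylcholine and is best known from lung surfactant, had 20.2, 34.4 and 23.9 CPM in the WT libraries against 104, 51.3, 50.6 and 87.2 CPM in the KO libraries. All KO libraries lay above all WT libraries, and KO replicates 1 and 4 were higher than replicates 2 and 3. Fitted over all libraries, the log2 fold change of *Lpcat1* was 1.49 ± 0.31 (SE) at an adjusted p of 0.0753, compared with an adjusted p of 0.000808 in the exact test. Without KO replicates 1 and 3 the log2 fold change was 1.41, and within lane 4 it was 1.00. The lymphocyte markers were highest in KO replicates 3 and 1, and their part in the *Lpcat1* difference was not tested.

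*Lpcat2*, which also makes platelet activating factor, had 8.05, 13.8 and 8.83 CPM in the WT libraries against 11.4, 20.5, 20.1 and 13.5 CPM in the KO libraries. The KO libraries reached higher, but replicates 1 and 4 lay within the WT range. For *Lpcat2*, the fitted log2 fold change was 0.68 ± 0.28 (SE) and the adjusted p 0.207, and within lane 4 the log2 fold change was 0.28. *Lpcat3*, which introduces polyunsaturated fatty acids, had 71.5 ± 8.79 CPM in WT (SD, n = 3) against 82.4 ± 15.6 CPM in KO libraries (SD, n = 4), and *Lpcat4* had 27.3 ± 9.28 CPM in WT (SD, n = 3) against 24.5 ± 8.53 CPM in KO libraries (SD, n = 4), with log2 fold changes of 0.20 and −0.16. Per kb of exon, *Lpcat3* was the most abundant of the family in every WT library. *Lpcat1* made up 15.3% ± 1.21 (SD, n = 3) of the summed CPM per kb of the 4 genes in WT libraries and 31.0% ± 9.28 (SD, n = 4) in KO libraries, where it exceeded *Lpcat3* in replicate 1 alone.

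Platelet activating factor is inactivated by acetylhydrolases. *Pafah2* (plus strand, chr4:133952235-133983328), an intracellular form that also removes oxidised acyl chains, had 28.1, 14.4 and 21.7 CPM in the WT libraries against 10.6, 8.01, 8.52 and 10.1 CPM in the KO libraries. Every KO library was below every WT library, and WT replicate 2 was nearest to them. *Pafah2* had a fitted log2 fold change of −1.20 ± 0.23 (SE) at an adjusted p of 0.0712, compared with an adjusted p of 0.00116 in the exact test. Within lane 4 the log2 fold change was −0.62. *Pafah1b1*, the noncatalytic subunit of another acetylhydrolase and a regulator of dynein, had 139 ± 8.13 CPM in WT (SD, n = 3) against 144 ± 7.35 CPM in KO libraries (SD, n = 4) and a log2 fold change of 0.05.

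All 3 members grouped as lipid transfer and scrambling were lower in KO libraries, each without overlap, beside 9.62% of all tested genes. Their median log2 fold change of −0.97 was the lowest of the groups. *Serinc5*, which also scrambles phospholipids but was placed with phosphatidylserine, was higher in every KO library (log2 fold change 0.90). All 3 members of the group are on the study's list, so this count is not independent of how that list was chosen. *Stard10* (plus strand, chr7:108465600-108495140), which carries phosphatidylcholine and phosphatidylethanolamine between membranes, had 171, 252 and 217 CPM in the WT libraries against 102, 94.6, 97.7 and 142 CPM in the KO libraries. Among the KO libraries, replicates 1 to 3 lay close together and replicate 4 was nearest to the lowest WT library, replicate 1. The fit gave *Stard10* a log2 fold change of −0.97 ± 0.20 (SE) and an adjusted p of 0.0739, and within lane 4 the log2 fold change was −1.07.

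*Cptp* (minus strand, chr4:155238832-155243549), which transfers ceramide 1-phosphate, had 40.8, 31.0 and 38.5 CPM in the WT libraries against 17.0, 18.6, 19.9 and 25.6 CPM in the KO libraries. Again the highest KO library was replicate 4 and the lowest WT library replicate 2. Fitted over all libraries, the log2 fold change of *Cptp* was −0.86 ± 0.18 (SE) at an adjusted p of 0.0753, and within lane 4 the log2 fold change was −0.45. *Ano4* (minus strand, chr10:88411740-88720535), of the anoctamin family that includes calcium-dependent lipid scramblases, had 19.8, 8.67 and 10.2 CPM in the WT libraries against 7.27, 2.65, 3.32 and 3.52 CPM in the KO libraries. WT replicate 1 was the highest, and KO replicate 1 lay nearest to, but below, the lowest WT library. For *Ano4*, the fitted log2 fold change was −1.62 ± 0.41 (SE) and the adjusted p 0.0895, compared with an adjusted p of 0.00760 in the exact test. Without WT replicate 1 its log2 fold change was −1.18, and without KO replicate 1 it was −2.03.

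**Figure D3:**
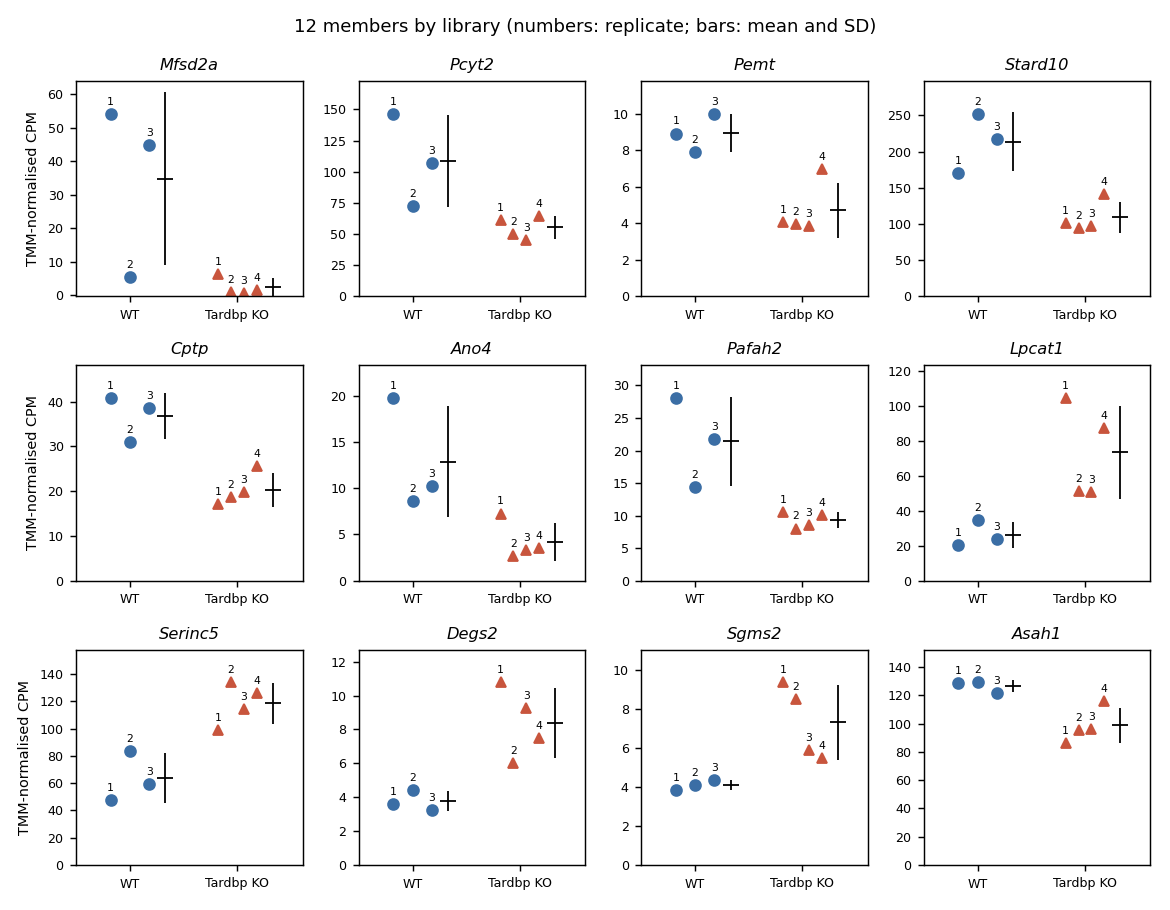
TMM-normalised CPM of 12 members in the 3 WT libraries (circles) and the 4 KO libraries (triangles), with replicate numbers and with bars for mean and SD. WT replicate 2 is the lowest WT library for Mfsd2a (5.57 CPM), Pcyt2, Pemt, Cptp, Ano4 and Pafah2, and KO replicate 4 is the highest KO library for Pcyt2, Pemt, Stard10, Cptp and Asah1.

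Ceramide synthesis had 9 members and a median log2 fold change of 0.24, with 7 positive and 2 negative values, but only 1 member was higher and 1 lower at an unadjusted p under 0.05. Its first step is made by serine palmitoyltransferase. *Sptlc1*, which encodes one subunit, had 65.2, 57.3 and 66.3 CPM in the WT libraries against 45.7, 44.5, 51.4 and 53.4 CPM in the KO libraries. The KO libraries were lower without overlap, with a log2 fold change of −0.37 ± 0.13 (SE) at an adjusted p of 0.154, a direction that was lost with scaling by library total (0.00478), and within lane 4 the log2 fold change was −0.13. *Sptlc2*, the other subunit, had 70.3 ± 6.20 CPM in WT (SD, n = 3) against 73.8 ± 5.10 CPM in KO libraries (SD, n = 4) and a log2 fold change of 0.07.

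*Degs2* (minus strand, chr12:109925002-109940516), which desaturates and hydroxylates dihydroceramide and gives phytoceramides, had 3.61, 4.41 and 3.24 CPM in the WT libraries against 10.8, 6.01, 9.25 and 7.47 CPM in the KO libraries. All KO libraries lay above all WT libraries, and replicates 1 and 3, the libraries with the most lymphocyte transcripts, were the highest; the part of these transcripts in the difference was not tested. *Degs2* had a fitted log2 fold change of 1.16 ± 0.26 (SE) at an adjusted p of 0.0807, compared with an adjusted p of 0.00948 in the exact test. Without KO replicates 1 and 3 the log2 fold change was 0.85. Its exons share 13.6% of their bases with *Evl* on the opposite strand, from which reads cannot be told apart without strand. *Degs1*, the main dihydroceramide desaturase, had 38.5 ± 4.24 CPM in WT (SD, n = 3) against 46.3 ± 3.64 CPM in KO libraries (SD, n = 4) (log2 fold change 0.27, unadjusted p = 0.0786).

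The ceramide synthases, which differ in the length of the fatty acid they attach, kept their order of level per kb in every library. *Cers2*, for very long chains, made up 67.6% ± 0.922 (SD, n = 3) of the summed CPM per kb of the 4 synthases in WT and 62.4% ± 3.18 (SD, n = 4) in KO libraries, followed by *Cers5* with 28.0% ± 1.31 (SD, n = 3) and 31.7% ± 2.94 (SD, n = 4). *Cers4* and *Cers6* had under 5% each in every library. No synthase reached an unadjusted p of 0.05, and their log2 fold changes were −0.16 for *Cers2*, 0.13 for *Cers5*, 0.26 for *Cers4* and 0.57 for *Cers6*. *Kdsr*, which reduces 3-ketodihydrosphingosine, had a log2 fold change of 0.24.

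Sphingomyelin is made from ceramide and phosphatidylcholine by *Sgms1* in the Golgi apparatus and *Sgms2* mainly at the plasma membrane. *Sgms2* (minus strand, chr3:131021903-131047858) had 3.84, 4.08 and 4.34 CPM in the WT libraries against 9.37, 8.51, 5.90 and 5.49 CPM in the KO libraries. The WT libraries lay close together and every KO library was above them. The fit gave *Sgms2* a log2 fold change of 0.84 ± 0.25 (SE) and an adjusted p of 0.123, and within lane 4 the log2 fold change was 0.47. *Sgms1*, whose 3′ UTR holds the run of 16 UG dinucleotides, had 24.6 ± 3.17 CPM in WT (SD, n = 3) against 32.3 ± 7.91 CPM in KO libraries (SD, n = 4) (log2 fold change 0.39, unadjusted p = 0.0836). *Ugcg*, which makes glucosylceramide, was higher in replicate 1 of each genotype than in the other libraries, at 87.7 and 75.3 CPM, against 31.2 to 46.3 CPM, and its log2 fold change was −0.33.

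Both members that break down sphingolipids in lysosomes were lower in KO libraries at an unadjusted p under 0.05, beside 10.7% of all tested genes. Their median log2 fold change was −0.41. *Asah1*, acid ceramidase, had 129, 129 and 122 CPM in the WT libraries against 86.6, 95.8, 96.4 and 116 CPM in the KO libraries. The KO libraries were all below the WT libraries, which lay close together. Fitted over all libraries, the log2 fold change of *Asah1* was −0.36 ± 0.14 (SE) at an adjusted p of 0.190, and the log2 fold change turned to 0.01 with scaling by library total. *Smpd1*, acid sphingomyelinase, had 41.0, 35.7 and 50.0 CPM in the WT libraries against 24.2, 30.9, 31.7 and 35.8 CPM in the KO libraries. KO replicate 4 reached the lowest WT library. The log2 fold change of *Smpd1* was −0.46 ± 0.17 (SE) at an adjusted p of 0.177. Within lane 4 the log2 fold change was −0.08, and with scaling by library total it was −0.09.

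Per kb of exon, the most abundant members in WT libraries were *Stard10* (89.6 CPM per kb), *Chpt1* (53.2), *Asah1* (37.3), *Cers2* (31.9) and *Pcyt2* (25.0). In KO libraries they were *Chpt1* (62.1 CPM per kb), *Stard10* (45.7), *Asah1* (29.1), *Cers2* (28.5) and *Lpcat3* (25.2). Among the 42, *Pcyt2* had rank 15 in KO libraries, *Mfsd2a* went from rank 13 to 38 and *Lpcat1* from rank 27 to 9. For *Chpt1*, the SD within each genotype was larger than the difference between the means. Summed, the members took 0.183% to 0.231% of all counts in WT libraries and 0.214% to 0.277% in KO libraries, ranges that overlap.

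Ratios of related enzymes within a library do not depend on how libraries are scaled to each other. They were computed for 12 pairs from CPM per kb and are given without a test. The share of other gene pairs that separate was not computed, so the count of separated pairs has no background. *Pcyt2*, *Sptlc1*, *Lpcat1* and *Sgms2* were already separated as single genes. The log2 ratio of *Pcyt1a* to *Pcyt2*, the activating enzymes of the choline and ethanolamine branches, was −1.72, −1.27 and −1.51 in the WT libraries against −1.17, −0.77, −0.63 and −0.89 in the KO libraries. The ratio was thus higher in every KO library, while *Pcyt2* remained the more abundant of the pair. The ratio of the subunits *Sptlc1* and *Sptlc2* was 1.405, 1.47 and 1.53 in the WT libraries against 0.81, 1.00, 1.09 and 1.22 in the KO libraries, lower in every KO library. For *Lpcat1* and *Lpcat3* it was −2.09, −1.58 and −1.78 in the WT libraries against 0.48, −1.09, −1.21 and −0.40 in the KO libraries, higher in every KO library. *Ptdss1*/*Ptdss2* (mean 1.16 ± 0.14 in WT, n = 3, and 0.85 ± 0.11 in KO, n = 4) and *Chka*/*Chkb* (mean 1.49 ± 0.08 in WT, n = 3, and 0.57 ± 0.35 in KO, n = 4) were lower without overlap, and *Sgms2*/*Sgms1* (mean −1.77 ± 0.13 in WT, n = 3, and −1.34 ± 0.39 in KO, n = 4) was higher without overlap. The remaining 6 ratios overlapped, among them *Degs2*/*Degs1* and *Cds1*/*Cds2*.

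**Figure D4:**
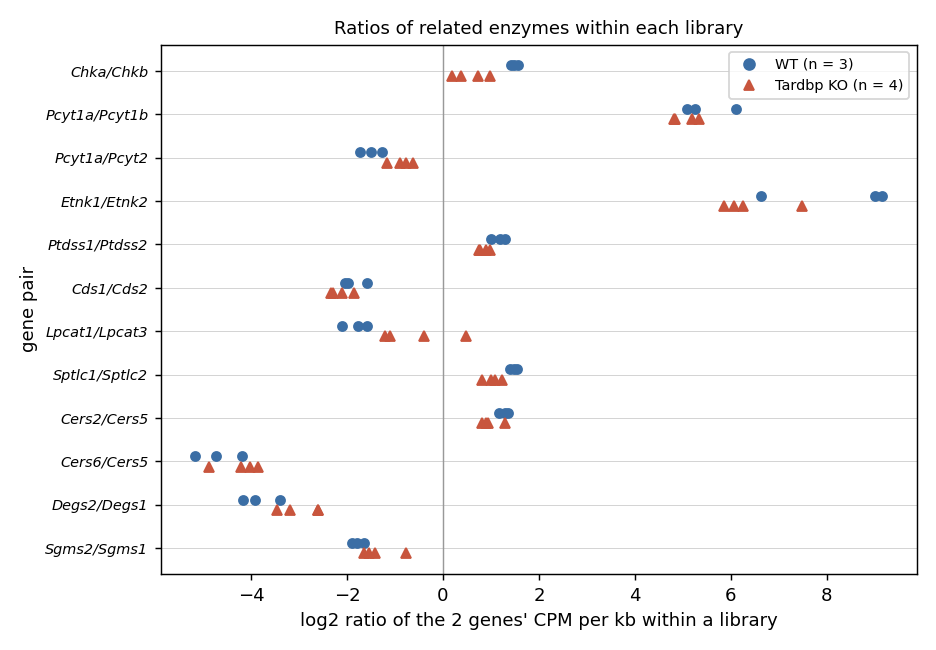
Log2 ratio of the CPM per kb of related genes within each library, for 12 pairs, in the 3 WT libraries (circles) and the 4 KO libraries (triangles). The KO libraries lie apart from the WT libraries in 6 pairs, for example Pcyt1a/Pcyt2, at −1.72 to −1.27 in WT and −1.17 to −0.63 in KO. The share among other gene pairs was not computed.

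Promoter windows from 250 bases before to 50 bases after the transcription start were given for 39 of the 42 members (RefSeq, assembly GRCm38.p6, a later build than that of the counts). They were searched on both strands for TCACNCCAC, a core of the sterol regulatory element bound by SREBP, and for TTCNNNGAA, the element bound by STAT5, because SREBP and STAT5 act on lipid synthesis genes and in lactation. The sites shown are the hits in *Pafah2*, *Pcyt1a*, *Pemt* and *Sgms2*, with the motif in capitals.
Pafah2: tctccTCACCCCACcagagggaa
Pcyt1a: tcggctcagTCACCCCACgcgcccggc
Pemt: ataaggactTTCGAAGAAgggagtcta
Sgms2: aagggaggtTTCCAGGAAgttaaacgt

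These sequences lie at chr4:134402662-134402684 and chr16:32430796-32430822 on the plus strand and at chr11:60040194-60040220 and chr3:131489097-131489123 on the minus strand. TCACNCCAC was found in 2 members (5.13%), *Pafah2* and *Pcyt1a*, and in 1.44% of all 27025 genes with a window. TTCNNNGAA was found in 4 members (10.3%), which also included *Cers2* and *Kdsr*, and in 9.55% of all genes. A gene can have several windows. By window, TTCNNNGAA was found in 6.67% of the 60 member windows and in 8.30% of all 32851. TCACNCCAC was found in 5% and 1.24% of them, with the same *Pcyt1a* site counted in overlapping windows. No member had both motifs. The members with a hit had log2 fold changes between −1.20 (*Pafah2*) and 0.84 (*Sgms2*).

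Another 74 genes of the same pathways were listed as a comparison, of which 69 were tested. Of these, 7 were lower and 10 higher at an unadjusted p under 0.05, or 24.6% against 21.4% of all tested genes, and their median log2 fold change was 0.01. Groups did not overlap for 7 lower and 7 higher genes of the 69, beside 9.62% and 9.07% of all tested genes. The exact test and DESeq2 called 1 of the 69, *Smpdl3b*, beside 2.44% and 3.31% of all tested genes. *Smpdl3b* encodes a membrane-bound relative of acid sphingomyelinase and is also on the study's list. *Smpdl3b* had 11.1, 8.19 and 13.1 CPM in the WT libraries against 5.47, 3.73, 1.92 and 3.87 CPM in the KO libraries, with every KO library below every WT library. For *Smpdl3b*, the fitted log2 fold change was −1.53 ± 0.34 (SE) and the adjusted p 0.0793.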

How the data were processed

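The deposited values are raw counts per gene, which the authors made from TruSeq libraries of total RNA, sequenced as paired-end reads, mapped to NCBIM37 (mm9) with STAR and counted with featureCounts 1.4.6-p5. The submitters' processing notes give STAR 2.5.2a, which is not the version in the study's methods. The counting used neither strand nor reads that overlapped several genes. Mitochondrial (37) and ribosomal (580) genes were removed, as were genes that did not reach 5 counts in 4 or more libraries. The 17175 remaining genes were tested with edgeR 4.0.16 (R 4.3.3) by the quasi-likelihood test after TMM scaling, with Benjamini-Hochberg adjustment over all of them. Adjusted p-values in the text come from this fit unless the exact test or DESeq2 1.42.0 is named. SD includes counting error and the spread between libraries, which were not separated. SE was derived as the absolute log2 fold change divided by the square root of the quasi-likelihood F statistic, and is not an output of the fit. On simulated counts for this comparison (16920 genes, 200 of them changed 4-fold), the 3 tests recovered 154, 179 and 185, with 3, 17 and 22 false calls. The simulation varied each gene independently, without shifts shared between genes. Among the members only *Mfsd2a* had a fitted change above 4-fold. The simulated counts therefore do not give the power or the false calls for the members in these libraries. Members with an unadjusted p under 0.05, without overlap between genotypes or called by the exact test or DESeq2 are given by library. UG runs used GENCODE vM1 transcripts and the NCBIM37 genome. Levels per kb, family shares and ratios used exon lengths from the count table, merged over all annotated isoforms. The members and all gene lists were chosen with earlier results of these data known.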

Additional observations from a re-analysis of the deposited data

Results flagged for a closer look

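In 4 of the 42 members, 1 of the 4 KO libraries lay far from the other 3, with a gap to its neighbour, as a share of the whole range, above Dixon's limit for 4 samples. By chance about 1 group in 20 shows such a gap. *Pemt* had 6.96 CPM in KO replicate 4 and 3.87 to 4.09 CPM in the other KO libraries. *Stard10* had 142 CPM in KO replicate 4 and 94.6 to 102 CPM in the others. In KO replicate 3, *Degs1* had 41.0 CPM, against 47.6 to 49.0 CPM, and *Etnk2* had 0.409 CPM, against 0.902 to 0.960 CPM. KO replicate 4 thus gave the value nearest to WT for *Pemt* and *Stard10*, and without it their log2 fold changes were −1.20 and −1.14 in place of −0.92 and −0.97. None of the 12 ratios showed such a gap.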

How the results depend on the processing

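At the study's limits no member was called by the quasi-likelihood test under any normalization or filter tried, with the replicate block or without any 1 library (0 in each), whereas edgeR's exact test and DESeq2 called 5 each. At an adjusted p under 0.05 with no limit on the fold change, the quasi-likelihood test gave 0 members, but 8 with the replicate block (beside 3.78% of all genes), 6 without WT replicate 2 (5.09%), 4 with no filter (1.14%) and 1 without KO replicate 4 (0.523%). The number called by the exact test ran from 0 to 7 without 1 library (0.628% to 4.61% of all genes) and was 3 without KO replicates 1 and 3, an alternative chosen after seeing the data, as were the other exact tests with libraries left out. The number with an unadjusted p under 0.05 rose from 17 to 26 with scaling by library total (33.8% of all genes) and ran from 14 to 19 without 1 library (12.2% to 25.1%). Members without overlap numbered 16 to 24 without 1 library (20.6% to 36.8% of all genes), and 23 without KO replicates 1 and 3 (31.5%). The median log2 fold change moved from −0.02 to 0.35 with scaling by library total, to −0.0530 with at least 10 counts in every library, which leaves out 1 member, to −0.0889 with the replicate block, and ran from −0.0623 to 0.0745 without 1 library. Relative to the median of all genes it was −0.07 with TMM and with library totals. *Pisd*, *Sptlc1* and *Asah1* turned to 0.0811, 0.00478 and 0.00859 with library totals; of 323 values of the 19 members given by library under the alternatives, 310 kept direction and side of the limits. Deviations of same-numbered libraries correlated at 0.370, 0.0911 and −0.0608, and WT replicates 2 and 3 correlated best with KO replicates 4 and 2, so the numbers were not taken as pairs. With the replicate block, 18 members had an unadjusted p under 0.05, beside 24.6% of all genes. Depth limits *Etnk2*, with 4 counts in 2 of the WT libraries.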
